A study of Mus musculus with 24 samples.

Results

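The genes described here are the members of 6 gene families that expanded in rodents and are known for their placental members, although some Ceacam and Serpinb9 genes are known mainly from other tissues. They were chosen by symbol among the protein-coding genes of the annotation: 25 members of the prolactin family with a Prl symbol and a digit, 13 pregnancy-specific glycoprotein genes (Psg), 15 Ceacam genes, 7 Serpinb9 genes, 8 placental cathepsin genes (Cts3, Cts6, Cts7, Cts8, Ctsj, Ctsm, Ctsq and Ctsr) and the trophoblast-specific protein genes Tpbpa and Tpbpb. This gave 70 genes of the 53379 in the tables, of which 21865 are protein-coding. No measured value entered the choice.

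RNA was sequenced from mouse E14 cells (E14Tg2a.IV, an embryonic stem cell line), in 10 libraries. The day 4 groups were embryoid bodies, the aggregates in which stem cells differentiate once the self-renewal factor LIF is left out of the medium. They came from cells with the genotypes Smad2/3DKO (called double knockout here), Smad2-/- (Smad2 knockout), Smad3-/- (Smad3 knockout) and Wild type (WT), and the fifth group was undifferentiated WT cells at day 0. Each group held 2 libraries. All share the parental line, and the labels give neither the number of clones behind a knockout nor whether the libraries of a group were separate cultures, so that p-values reflect how far the sequenced libraries vary, and the effect of a knockout cannot be told apart from that of its clone.

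In rodent placentas, trophoblast giant cells and the spongiotrophoblast secrete hormones and glycoproteins into the maternal blood. The prolactin family members among them act on the mammary gland, the ovary, maternal vessels and immune cells, the Psg glycoproteins act on immune cells and vessels, Serpinb9 proteins inhibit proteases such as the granzymes of killer lymphocytes, and the placental cathepsins are lysosomal cysteine proteases. SMAD2 and SMAD3 carry Nodal and Activin signals to the nucleus, which in the early embryo hold the epiblast to embryonic fates.

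The libraries held 35733249 to 53672980 expected counts, and libraries of a group correlated at 0.973 to 0.991 across genes on log2(TPM + 1), where TPM is the length-scaled share of transcripts. Smad2 stood at 22.2 and 22.7 CPM in the double knockout and 19.2 and 20.4 CPM in the Smad2 knockout, against 49.9 and 38.3 CPM in WT at day 4. CPM are expected counts divided by the TMM-scaled library total and multiplied by 1e6, used for every level below unless TPM is named. Smad3 stood at 27.97 and 25.7 CPM in the double knockout, against 42.03 and 44.9 CPM in WT. In the Smad2 knockout Smad3 stood at 30.8 and 31.0 CPM. The double knockout was not called different from it (log2 difference -0.203, edgeR adjusted p = 0.338), so Smad3 RNA did not check the Smad3 loss there. In the libraries labelled Smad3 knockout Smad3 stood at 49.7 and 48.7 CPM (log2 difference from WT 0.18, adjusted p = 0.607), so its RNA did not check that label. Eomes, a primitive streak gene, stood at 6.395 and 5.29 CPM in the double knockout, against 218 and 215 CPM in the WT embryoid bodies. All 6 streak genes listed were called lower in the double knockout than in WT. Both double knockout libraries belong to the first of 2 series that the names of the deposited files form, while every other group has a library in each.

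More of these genes were detected, and at higher levels, in the double knockout than in any other group. At least 1 CPM was reached by 21 and 25 of the 70 genes in the double knockout and 7 and 4 in the Smad2 knockout, against 3 and 3 in WT at day 4. Summed over all 70 genes, the level was 232 and 281 CPM in the double knockout libraries, 32.1 and 22.7 in the Smad2 knockout, 14.0 and 12.4 in the Smad3 knockout, 11.5 and 10.3 in WT at day 4, and 15.1 and 15.4 in WT at day 0. Behind these sums stood 11175 and 12134 counts in the double knockout, 1213 and 1066 in the Smad2 knockout, 629 and 501 in the Smad3 knockout, 502 and 434 in WT at day 4, and 504 and 585 at day 0. At least 1 count was seen for 50 and 54 of the 70 genes in the double knockout, for 44 and 27 in the Smad2 knockout, for 25 and 21 in the Smad3 knockout, for 21 and 15 in WT at day 4, and for 14 and 15 at day 0. These are bulk samples, in which fewer cells of a type and less RNA per cell cannot be told apart.

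**Figure D1:**
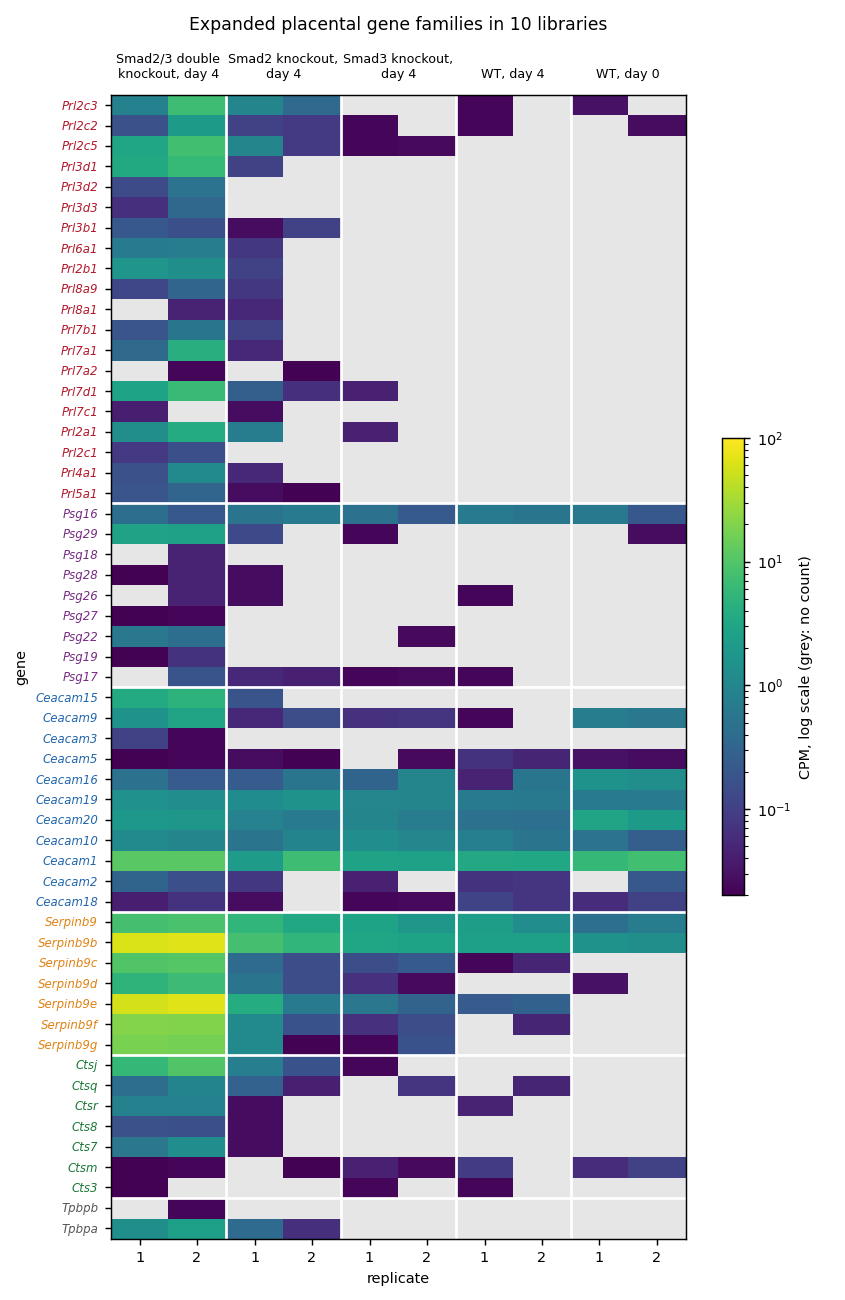
CPM of the 56 family members that had a count in any library (rows, grouped by family) in the 10 libraries (columns), on a log colour scale with grey for no count. The double knockout columns at the left are filled for most genes of all 6 families, the Smad2 knockout columns are filled more in replicate 1 than in replicate 2, and in the remaining columns mainly Ceacam and a few Serpinb9 genes have counts.

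Of the 70 genes, 14 had no count in any library: Prl3c1, Prl3a1, Prl8a2, Prl8a6, Prl8a8, Psg20, Psg21, Psg23, Psg25, Ceacam11, Ceacam12, Ceacam13, Ceacam14 and Cts6. Another 26 had counts but too few for the test, and 19 of these had more counts in the 2 double knockout libraries than in the other 8 together. The remaining 30 were tested. Among them, 18 passed the low-count filter only through the double knockout libraries and therefore had to be higher there, which makes their number no finding. The other 12 (Ceacam1, Ceacam9, Ceacam10, Ceacam16, Ceacam19, Ceacam20, Serpinb9, Serpinb9b, Serpinb9c, Serpinb9e, Prl2c3 and Psg16) pass the filter without those libraries. Of these 12, 9 were called higher in the double knockout than in WT and 0 lower, at an adjusted p under 0.05, while 10.8% of all 19470 genes tested were called higher and 12.3% lower. With the 18 included, 27 of 30 were called higher, and 18 without double knockout replicate 2. Ceacam10, Ceacam16 and Psg16 were not called. Adjusted p-values are Benjamini-Hochberg values of the edgeR quasi-likelihood test over all genes tested.

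Of the 25 prolactin family genes, 5 had no count and 12 too few for the test. Of the 8 tested, Prl2c3 alone passes the filter without the double knockout libraries and was called higher there than in WT, while the other 7 passed through the libraries in which they are high, so that their calls, given below as a description, count as no evidence for the family. Prl2c5, a proliferin, one of the hormones known to act on vessel growth (ENSMUSG00000055360.13, chromosome 13, 13182715 to 13191923, mm10), stood at 3.11 and 7.68 CPM in the double knockout and 0.953 and 0.0854 CPM in the Smad2 knockout, with 0.0222 and 0.0247 CPM in the Smad3 knockout and no count in WT at either day. All double knockout values lay above all others. Its level was at least 151-fold higher in the double knockout than in WT (adjusted p = 0.00417), against a floor of 3 counts over the WT group, the floor used for every group without counts. Such floors and intervals cover counting error only.

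Prl3d1 encodes placental lactogen I, the hormone that giant cells secrete first (ENSMUSG00000057170.6, chromosome 13, 27094190 to 27100258). It stood at 3.51 and 5.98 CPM in the double knockout and 0.106 and 0 CPM in the Smad2 knockout, with no count in WT at either day or in the Smad3 knockout. The level in the double knockout was at least 134-fold that of WT (adjusted p = 0.00273, by DESeq2 0.108). Prl7d1, the proliferin-related protein known to oppose vessel growth, stood at 2.80 and 6.43 CPM in the double knockout and 0.265 and 0.0640 CPM in the Smad2 knockout, with 0.0444 and 0 CPM in the Smad3 knockout and no count in WT. It was at least 129-fold higher in the double knockout than in WT (adjusted p = 0.0017).

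The remaining tested hormone genes had lower or less even levels. Prl2c3, a second proliferin, stood at 0.851 and 7.07 CPM in the double knockout and 0.980 and 0.363 CPM in the Smad2 knockout, against 0.0229 and 0 CPM in WT, where it had 1 count. The ratio of the double knockout to WT was 325 (95% exact counting interval 58.0 to 12884) and the adjusted p 0.00604. The double knockout libraries of this gene differed so much that replicate 1 lay within the Smad2 knockout range. Prl2a1 (1.35 and 3.83 CPM) and Prl7a1 (0.374 and 4.36 CPM) had no count in WT and were at least 72.1-fold and 64.5-fold higher in the double knockout. Their calls (adjusted p = 0.0229 and 0.0234) were less firm. The Prl2a1 call was lost without double knockout replicate 1 (0.0521) or 2 (0.0999) and without WT replicate 1 (0.0524), and the Prl7a1 call without double knockout replicate 2 (0.101). Prl2b1 (1.72 and 1.39 CPM) and Prl6a1 (0.685 and 0.719 CPM) were the other called members, with no count in WT (adjusted p = 0.00686 and 0.013). The Prl6a1 call was lost without double knockout replicate 1 (0.0679) or 2 (0.07). DESeq2 called none of these 4 (adjusted p = 0.152 for Prl2a1, 0.159 for Prl7a1, 0.196 for Prl2b1 and 0.282 for Prl6a1).

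Among the 17 prolactin family genes that were not tested, 5 had no count and 10 had more counts in the double knockout than in the other 8 libraries together. Prl4a1, a hormone known to bind uterine natural killer cells in rodents, had 8 and 49 counts in the double knockout and none in WT (at least 17.9-fold). Prl3b1, which encodes placental lactogen II, the lactogen of later gestation, had 10 and 7 counts in the double knockout, 1 and 5 in the Smad2 knockout and none in WT. Prl8a2, which encodes a hormone of the decidua, had no count in any library, like Prl8a6, Prl8a8, Prl3c1 and Prl3a1, which over the double knockout allows up to 3 counts each.

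Several of these genes are near copies, and short reads cannot be assigned among them with certainty. Prl2c2 and Prl2c3 differ at 3 of 672 coding positions, and the 3 Prl3d genes differ at 16 of 672. The expected counts were 8 and 89 for Prl2c2 beside 41 and 305 for Prl2c3 in the double knockout, and 7 and 22 for Prl3d2 and 3 and 15 for Prl3d3 beside 169 and 258 for Prl3d1. The stretches below, coding bases 1 to 60 of the Prl2c pair and 58 to 117 of the Prl3d genes (GENCODE M21 transcripts), show how little separates the copies. Capitals mark the positions that differ within each set.
Prl2c2: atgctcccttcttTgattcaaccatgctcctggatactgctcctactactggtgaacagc
Prl2c3: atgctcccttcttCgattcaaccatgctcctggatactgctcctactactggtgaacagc
Prl3d1: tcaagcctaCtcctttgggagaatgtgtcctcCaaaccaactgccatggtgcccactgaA
Prl3d2: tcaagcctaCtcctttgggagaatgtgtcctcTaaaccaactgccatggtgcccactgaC
Prl3d3: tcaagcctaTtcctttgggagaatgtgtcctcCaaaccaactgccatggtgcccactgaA

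Of the distinct 50-base stretches in their transcripts, 83.3% of those of Prl2c2, 60% of those of Prl2c3 and 55.6% of those of Prl3d1 also occur in another gene, so values for the single genes of these sets are uncertain, and their sums less so. Prl7a1, Prl2a1 and Prl2b1 share none, and Prl7d1 shares 0.529%. Among the tested members, the spans of Ceacam1, Ceacam16, Psg16 and Serpinb9b, introns included, overlap a gene on the other strand. That of Prl6a1 overlaps one on its own strand. Where exons overlap, some reads may belong to the other gene, and the strand setting of the counting is not stated. How many was not tested. The expected counts of Psg16 and Prl6a1 were whole in every library where they were detected.

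Prl7d1 and the proliferins have like promoters and unlike coding sequences. Over the 250 bases before the start, Prl7d1 was 93.6% identical to Prl2c5 and 94% to Prl2c3, while the coding sequences were 56.3% and 57.4% identical. The median over all 1830 pairs of the 61 members with a promoter in RefSeq (GRCm38.p6, 250 bases before to 50 after the start) was 46.4%, and the 95th percentile 57.2%. Prl2c5 and Prl7d1 lie in separate groups of family genes on chromosome 13. Their double knockout calls, both higher, are no finding, because both pass the low-count filter through those libraries alone. The Smad2 knockout call of Prl7d1, also higher, rested on 10 and 3 counts (edgeR adjusted p = 0.0454). It was kept in 11 alternatives to the main fit and lost in 11. That of Prl2c5 rested on 36 and 4 counts (edgeR adjusted p = 0.0263), kept in 16 and lost in 6. Whether the like promoters bear on these levels was not tested. The bases from 250 to 51 before the start are given 5′ to 3′, at chr13:13182466-13182665 (plus strand) for Prl2c5 and chr13:27716788-27716987 (minus strand) for Prl7d1. Capitals mark the bases that differ or have no partner in the alignment of the pair.
Prl2c5: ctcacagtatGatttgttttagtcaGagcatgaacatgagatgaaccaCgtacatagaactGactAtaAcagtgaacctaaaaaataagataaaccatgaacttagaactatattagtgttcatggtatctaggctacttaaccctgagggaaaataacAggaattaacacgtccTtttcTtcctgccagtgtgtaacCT
Prl7d1: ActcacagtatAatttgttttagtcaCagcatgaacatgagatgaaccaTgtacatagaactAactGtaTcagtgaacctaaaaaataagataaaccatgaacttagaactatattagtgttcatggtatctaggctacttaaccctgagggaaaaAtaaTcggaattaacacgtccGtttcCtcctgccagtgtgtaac

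The Serpinb9 protease inhibitors had the highest summed level of the 6 families in the double knockout, and all 7 genes were called higher there than in WT, of which Serpinb9d, Serpinb9f and Serpinb9g passed the filter through those libraries alone. Serpinb9b (ENSMUSG00000021403.3, chromosome 13, 33027416 to 33041884) stood at 61.4 and 64.9 CPM in the double knockout, 7.997 and 5.53 in the Smad2 knockout and 3.00 and 2.79 in the Smad3 knockout, against 2.42 and 2.47 in WT at day 4. Its log2 fold change between the double knockout and WT was 4.69 (edgeR adjusted p = 1.49e-05, SE 0.25). Serpinb9e (ENSMUSG00000062342.3, chromosome 13, 33249612 to 33260850) stood at 58.1 and 67.1 CPM in the double knockout, 3.87 and 0.661 in the Smad2 knockout and 0.577 and 0.296 in the Smad3 knockout, against 0.229 and 0.285 in WT, with a log2 fold change of 7.91 (edgeR adjusted p = 0.000475, SE 0.85) between the double knockout and WT. For both genes the order of the groups was the same, with the double knockout far above the Smad2 knockout, and the Smad2 knockout above the Smad3 knockout and WT.

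Serpinb9 itself, the inhibitor of granzyme B, moved less. It stood at 8.04 and 8.68 CPM in the double knockout, 5.43 and 3.18 in the Smad2 knockout and 2.84 and 1.83 in the Smad3 knockout, against 2.26 and 1.28 in WT. The log2 fold change between the double knockout and WT was 2.23 (edgeR adjusted p = 0.00472, SE 0.42). Serpinb9c stood at 10.0 and 10.6 CPM in the double knockout, against 0.0229 and 0.0475 CPM (3 counts) in WT, a ratio of 295 (95% exact counting interval 101 to 1432). The near copies Serpinb9f (20.5 and 19.97 CPM) and Serpinb9g (18.1 and 17.1 CPM) had 2 and 0 counts in WT (adjusted p = 0.00063 and 0.00474). Their coding sequences are 98.7% identical, and 78.7% and 54.8% of their 50-base stretches occur elsewhere, so the level of each is uncertain. Serpinb9d (5.09 and 6.94 CPM) had no count in WT and was at least 170.5-fold higher. All calls of the 7 genes between the double knockout and WT were kept without any 1 of the 10 libraries.

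Immune cells also express Serpinb9 and Ceacam1. The 10 haematopoietic and immune genes listed summed to 5.75 and 8.23 CPM in the double knockout, against 8.76 and 8.53 CPM in WT at day 4. Of these, Cd48 had no count in any library, and Ptprc, the common leukocyte antigen, stood at 0 and 0.0696 CPM in the double knockout. Of the 5 tested, 1 was called higher and 2 lower than in WT. Gata1 stood at 3.34 and 4.06 CPM in the double knockout, against 1.17 and 1.26 in WT. Cd34 stood at 1.10 and 2.18 CPM, against 3.82 and 3.30, and Runx1 at 1.16 and 1.41 CPM, against 3.75 and 3.85. The part of immune cells in the results was not tested.

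The Ceacam adhesion receptors did not behave as 1 family: some were absent from WT and others were expressed in every group. Ceacam15 and Ceacam9, which are known from the placenta, stood at 3.65 and 4.96 CPM and 1.60 and 2.92 CPM in the double knockout. In the Smad2 knockout Ceacam15 stood at 0.185 and 0 CPM and Ceacam9 at 0.0530 and 0.149 CPM. Ceacam15 had no count in WT at either day and was at least 122-fold higher in the double knockout (edgeR adjusted p = 0.00457, by DESeq2 0.115). It passes the low-count filter through the double knockout libraries alone, so its call is no finding. Ceacam9 had 1 count in WT at day 4, and its ratio was 191 (95% exact counting interval 33.9 to 7574), with an adjusted p of 0.00037.

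Ceacam1, the broadly expressed epithelial adhesion receptor, stood at 11.2 and 11.2 CPM in the double knockout, 2.20 and 7.21 in the Smad2 knockout and 2.73 and 2.64 in the Smad3 knockout, against 3.38 and 3.26 in WT. Its log2 fold change between the double knockout and WT was 1.75 (edgeR adjusted p = 0.0221, SE 0.45). The call was lost without double knockout replicate 1 (0.0924) or 2 (0.0901) and without WT replicate 2 (0.0528), and 30.4% of its 50-base stretches also occur in another gene, mainly Ceacam2. Ceacam20, known from intestinal microvilli, stood at 1.89 and 1.81 CPM in the double knockout, against 0.503 and 0.452 in WT, with a log2 fold change of 1.95 (edgeR adjusted p = 0.00463, SE 0.36). Ceacam19 stood at 1.47 and 1.299 CPM, against 0.663 and 0.618 in WT, with a log2 fold change of 1.11 (edgeR adjusted p = 0.0373, SE 0.33). That call was lost by DESeq2 (0.066), without either WT day 0 library (0.0579 and 0.0583), without either WT day 4 library (0.0733 and 0.0941), without either Smad3 knockout library (0.0817 and 0.0818) and without either double knockout library (0.178 and 0.109). Ceacam16, a protein of the inner ear, stood at 0.498 and 0.232 CPM in the double knockout, against 0.0457 and 0.547 in WT, and the groups overlapped (adjusted p = 0.841). Ceacam10 stood at 1.12 and 0.951 CPM in the double knockout, against 0.777 and 0.523 in WT (adjusted p = 0.325).

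Few of the pregnancy-specific glycoproteins were expressed. Psg29 (ENSMUSG00000023159.8, chromosome 7, 17203477 to 17215760) stood at 2.72 and 2.60 CPM in the double knockout and 0.132 and 0 CPM in the Smad2 knockout, with no count in WT at day 4. It was at least 76.1-fold higher in the double knockout than in WT (edgeR adjusted p = 0.00185). Psg29 and Psg22 pass the low-count filter through the double knockout libraries alone, so their calls are no finding. Psg22, known from giant cells, stood at 0.602 and 0.441 CPM in the double knockout with no count in WT or the Smad2 knockout, and its call (adjusted p = 0.01) was lost without double knockout replicate 1 (0.071) or 2 (0.0513). Psg16 had another pattern: it stood at 0.436 and 0.209 CPM in the double knockout, 0.530 and 0.683 in the Smad2 knockout and 0.640 and 0.547 in WT, and was not called (adjusted p = 0.357). The other 10 Psg genes had at most 8 counts over the double knockout libraries.

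The placental cathepsins were led by Ctsj (ENSMUSG00000055298.6, chromosome 13, 61000179 to 61005959), at 5.81 and 9.97 CPM in the double knockout and 0.768 and 0.171 CPM in the Smad2 knockout, with no count in WT at either day. The double knockout was at least 222-fold above WT (edgeR adjusted p = 0.00102). All placental cathepsins tested pass the low-count filter through the double knockout libraries alone, so their calls there are no finding. Ctsq, a marker of sinusoidal giant cells, stood at 0.436 and 0.928 CPM in the double knockout, Ctsr at 0.851 and 0.835 CPM and Cts7 at 0.581 and 1.299 CPM. All 3 were called higher than in WT (adjusted p = 0.0347, 0.00994 and 0.00739), and all 3 calls were lost without double knockout replicate 2 (0.172, 0.059 and 0.0542). Without double knockout replicate 1 the Ctsq (0.0798) and Ctsr (0.0619) calls were lost, and the Ctsq call also without WT replicate 1 (0.114). Cts8 had 8 and 7 counts in the double knockout, and Ctsm, Cts3 and Cts6 had at most 2 over both libraries. The other genes with a cathepsin symbol, tested as relatives outside the members, did not share a direction: of 11, 3 were called higher and 3 lower in the double knockout than in WT.

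Tpbpa, the marker of the ectoplacental cone and spongiotrophoblast (ENSMUSG00000033834.7, chromosome 13, 60938492 to 60941984), stood at 1.41 and 2.48 CPM in the double knockout and 0.397 and 0.0640 CPM in the Smad2 knockout. It had no count in the Smad3 knockout or in WT at either day, and was at least 54.8-fold higher in the double knockout than in WT (edgeR adjusted p = 0.00624). Tpbpa passes the low-count filter through the double knockout libraries alone, so its call there is no finding. Its neighbour Tpbpb had 0 and 1 counts in the double knockout, beside 68 and 107 for Tpbpa, and none elsewhere. The coding sequences of the pair are 65.1% identical and only 2.89% of the 50-base stretches of Tpbpb occur in another gene, so reads of the pair can mostly be told apart, although Tpbpb overlaps 2 other genes of its strand. Over the 250 bases before their starts the 2 genes are 95.2% identical. The bases from 250 to 51 before the start are shown for this contrast between like upstream sequence and unlike levels, at chr13:60941987-60942186 (minus strand) for Tpbpa and chr13:60904898-60905097 (minus strand) for Tpbpb, with capitals as before.
Tpbpa: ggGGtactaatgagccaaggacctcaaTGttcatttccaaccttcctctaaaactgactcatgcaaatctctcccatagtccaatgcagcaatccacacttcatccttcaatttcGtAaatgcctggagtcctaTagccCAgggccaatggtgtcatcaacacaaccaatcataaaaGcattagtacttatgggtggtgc
Tpbpb: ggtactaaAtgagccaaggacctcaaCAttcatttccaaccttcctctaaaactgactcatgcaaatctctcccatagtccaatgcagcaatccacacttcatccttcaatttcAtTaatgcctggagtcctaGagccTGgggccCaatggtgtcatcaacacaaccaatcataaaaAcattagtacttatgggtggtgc

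Per transcript length, 4 serpins had the highest mean levels in the double knockout. Serpinb9e stood at 53.4 and 62.7 TPM and Serpinb9b at 39.0 and 38.9 TPM, and their ranges did not overlap. Serpinb9f (19.0 and 18.8 TPM), Serpinb9g (16.6 and 16.0 TPM), Prl2c5 (7.29 and 18.5 TPM), Ctsj (9.03 and 14.5 TPM) and Prl3d1 (8.13 and 14.1 TPM) followed, and the ranges of Prl2c5, Ctsj and Prl3d1 overlapped each other and that of Prl2c5 also the Serpinb9g range. Serpinb9c stood at 9.55 and 10.5 TPM, Serpinb9d at 7.60 and 10.6 TPM and Serpinb9 at 4.00 and 4.40 TPM, within or below the range of these hormones. Ceacam1 (7.06 and 6.63 TPM), Tpbpa (2.76 and 4.43 TPM), Prl6a1 (1.59 and 1.70 TPM) and Psg29 (0.830 and 0.800 TPM) were lower. In WT at day 4, Serpinb9b had 1.33 and 1.19 TPM and Ceacam1 2.19 and 1.68 TPM.

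**Figure D2:**
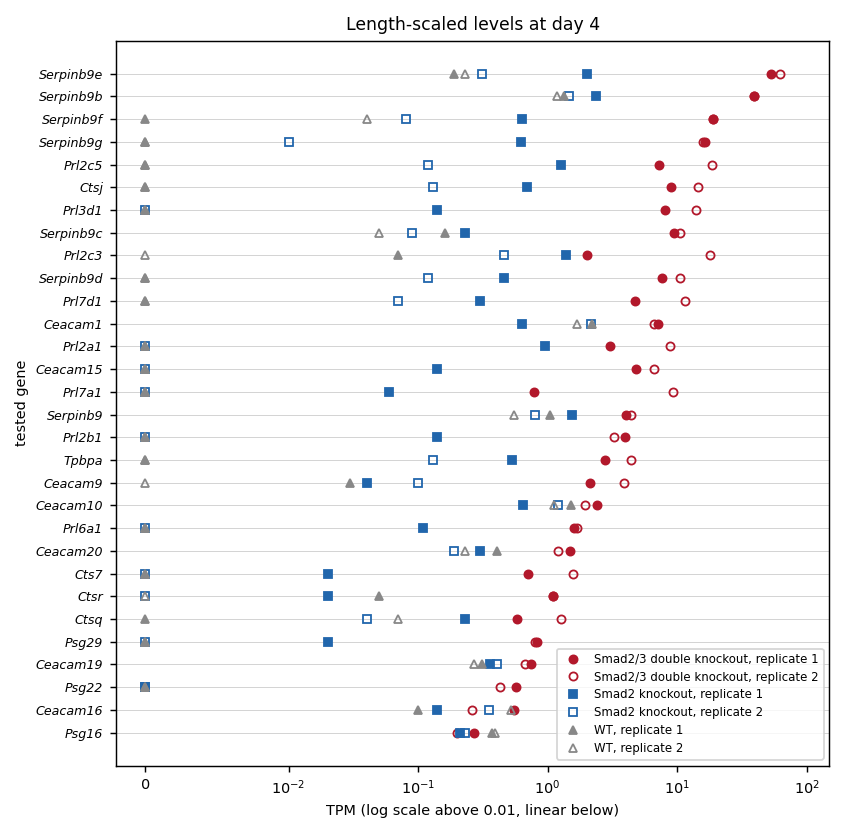
TPM of the 30 tested genes at day 4 in the single libraries of the double knockout (red circles), the Smad2 knockout (blue squares) and WT (grey triangles), filled for replicate 1 and open for replicate 2, on an axis that is logarithmic above 0.01 and linear below, in the order of the double knockout mean. Serpinb9e and Serpinb9b lie at the top, 15 of the 30 genes have both WT values at 0, the Ceacam16 groups overlap, and the Psg16 double knockout points lie below the WT points.

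The double knockout libraries differed from each other by family. Over the 14 prolactin family genes with at least 20 counts in the group, the ratio of replicate 2 to replicate 1 had a median of 2.72 (range 0.808 to 12.4) and was above 1 in 13. The 4 cathepsins had a median of 1.92 and Tpbpa a ratio of 1.76, whereas the 7 Serpinb9 genes had a median of 1.06 (0.948 to 1.36), the 8 Ceacam genes 0.919 and the 3 Psg genes 0.732. Across all genes tested with at least 20 counts, the median was 0.982, with 5th and 95th percentiles of 0.61 and 1.65. The prolactin family folds in the double knockout therefore average libraries that differ more than those of most genes. With 2 libraries, the part of this difference in the results was not tested.

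**Figure D3:**
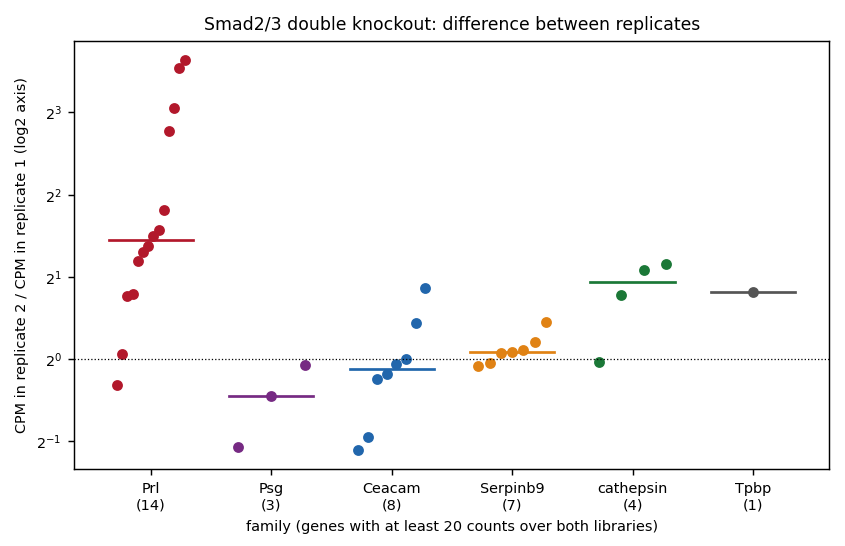
Ratio of CPM in double knockout replicate 2 to replicate 1 (log2 axis) for each family member with at least 20 counts over both libraries, by family, with the family median as a bar and the number of genes under each name. The prolactin family points reach 12.4 and lie above 1 in 13 of 14 genes, while the Serpinb9 points lie between 0.948 and 1.36.

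In the Smad2 knockout a subset of the genes was higher than in WT, at levels far under those of the double knockout. Between the Smad2 knockout and WT, 12 of the 30 tested members were called higher and 0 lower, and 6 of the 12 members that pass the filter without the double knockout were called higher. Among these 6, Prl2c3 had 54 counts in the Smad2 knockout, 1 in WT at either day and 0 in the Smad3 knockout. It therefore passes through the Smad2 knockout, where it is high, and its call here is no finding. Serpinb9c stood at 0.397 and 0.149 CPM in the Smad2 knockout. It passes only with the help of Smad2 knockout replicate 1, where it is high, so its call here is no finding either. Among all genes tested 15.4% were called higher and 20.1% lower. The called genes were 6 of the 7 Serpinb9 genes, Prl2c3, Prl2c5, Prl7d1, Ceacam19, Ctsj and Tpbpa. Serpinb9b had a log2 fold change of 1.46 (edgeR adjusted p = 0.00225, SE 0.23) and Serpinb9 of 1.27 (edgeR adjusted p = 0.0372, SE 0.41). Serpinb9e had one of 3.11 (edgeR adjusted p = 0.0171, SE 0.78), and Ctsj and Prl2c5 were at least 12.5-fold and 13.5-fold higher. The Serpinb9b call was lost when the Smad2 knockout and WT libraries were fitted alone (0.0553). On the TPM scale most calls were lost: limma called 0 of 17 members on log2(TPM + 1) and 1 on log2(TPM + 0.1), with an adjusted p of 0.214 and 0.199 for Serpinb9b, 0.215 and 0.0696 for Serpinb9d, and 0.179 and 0.0526 for Ctsj. Over all genes, these limma fits called 6968 and 6951 of 14328 in either direction. With the Smad2 knockout and WT libraries alone, edgeR called 2 of 10 tested members and 2461 of all 17643 genes tested. With replicate number as a block in edgeR, the calls of Prl7d1 (adjusted p = 0.0616) and Tpbpa (0.0536) were lost.

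The Smad2 knockout libraries differed as well. The 6 streak genes listed summed to 195 CPM in replicate 1 and 14.7 CPM in replicate 2. They summed to 7.16 and 5.96 CPM in the double knockout and 380 and 446 CPM in WT at day 4. The part of this difference in the results was not tested. Of the 70 genes, 37 were higher in replicate 1 and 9 in replicate 2, and the 7 Serpinb9 genes had a median ratio of replicate 2 to replicate 1 of 0.282. Over all genes tested with at least 20 counts in the Smad2 knockout, 9048 of 17152 were higher in replicate 2 (median ratio 1.02). The same lower and upper percentiles as given for the double knockout were 0.453 and 2.19 here, and the Serpinb9 median lay below this range. Without replicate 1, 5 members were called higher than in WT, and the log2 fold change of Serpinb9e was 1.36 (adjusted p = 0.0648). The calls of Prl2c3, Prl2c5, Prl7d1, Serpinb9, Serpinb9c, Serpinb9f and Tpbpa were lost without it as well (adjusted p 0.0829 to 0.194). Without replicate 2 the log2 fold change of Serpinb9e was 3.90 and the Ceacam19 call was lost (0.0765). Without WT replicate 1 there were 4 calls, with Ceacam19, Prl2c3, Prl2c5, Prl7d1, Serpinb9c, Serpinb9e, Serpinb9f and Tpbpa lost (adjusted p 0.06 to 0.111), and without WT replicate 2 there were 6, with Ceacam19, Prl2c3, Prl2c5, Prl7d1, Serpinb9 and Tpbpa lost (0.0501 to 0.125). Without either double knockout library, both of which enter the shared estimate of the spread, Prl7d1, Serpinb9 and Tpbpa were lost (0.0526 to 0.0653), and Ceacam19 without either Smad3 knockout library (0.0532) and Prl7d1 without either day 0 library (0.0521). On counts, the calls of Serpinb9b, Serpinb9d and Ctsj were kept without any 1 of the 10 libraries.

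Within the first series of file names, 38 of the 70 genes were higher and 8 lower in the Smad2 knockout library than in the WT library, and in the second series 25 were higher and 4 lower. For the double knockout, which was in the first series alone, 51 were higher and 5 lower than in the WT library of that series. The same split over all genes was not counted, and near copies and genes with few counts enter here as separate genes.

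Against the Smad2 knockout, the double knockout was higher in Ceacam9, Ceacam20, Serpinb9b, Serpinb9c and Serpinb9e. These are 5 of the 12 members that pass the filter without the double knockout, of which 0 were lower, with 20.5% of all genes tested called higher and 19.1% lower. With the other 18, 21 of 30 were called higher, and 14 without double knockout replicate 2. Serpinb9b had a log2 difference of 3.22 (edgeR adjusted p = 0.000136, SE 0.23) and Ceacam9 of 4.40 (edgeR adjusted p = 0.00116, SE 0.61). Serpinb9e had one of 4.81 (edgeR adjusted p = 0.00172, SE 0.70), which was 6.55 without Smad2 knockout replicate 1 and 4.01 without replicate 2. Ceacam20 had one of 1.29 (edgeR adjusted p = 0.0177, SE 0.35), lost without double knockout replicate 1 (0.0811) or 2 (0.0695) and without Smad2 knockout replicate 2 (0.0746). Prl3d1, placental lactogen I, had 427 counts over the double knockout and 4 over the Smad2 knockout (ratio of levels 99.0), and as it passes the filter through the double knockout alone its call (adjusted p = 0.00332, by DESeq2 0.262) is no finding. For Serpinb9 (log2 difference 0.96, adjusted p = 0.0818), Ceacam1 (1.24, 0.0513) and Prl2c3 (2.57, 0.0614) the difference missed the threshold.

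**Figure D4:**
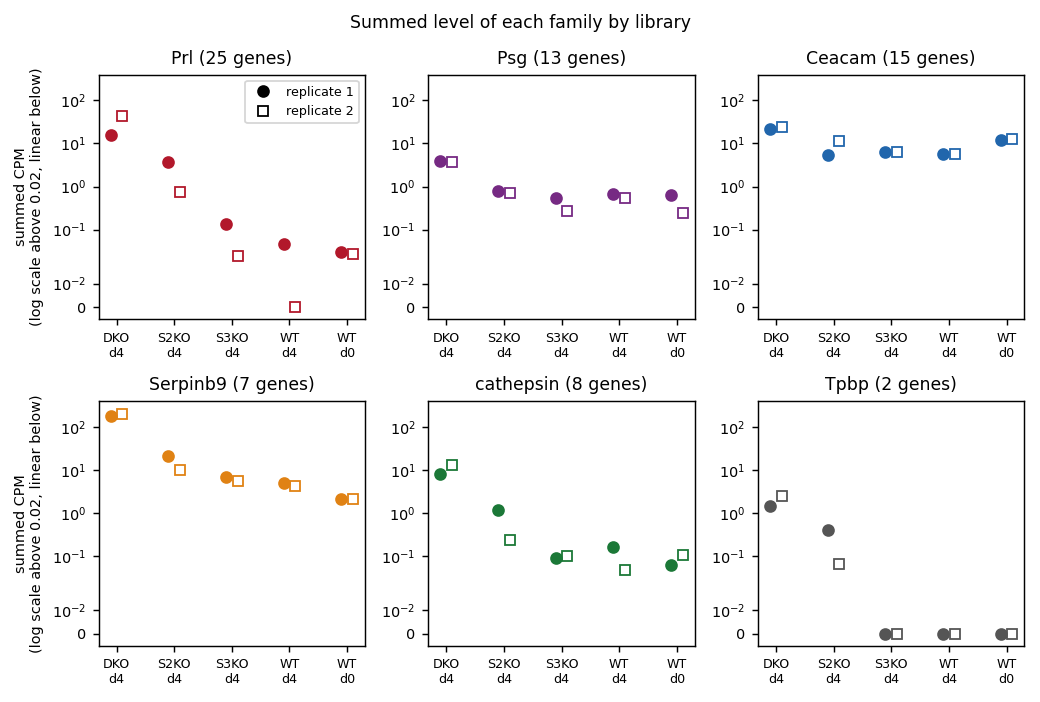
Summed CPM of each family in the 10 libraries (circles, replicate 1; squares, replicate 2), on axes that are logarithmic above 0.02 and linear below; DKO, S2KO and S3KO are the double, Smad2 and Smad3 knockouts, d4 and d0 the days. The prolactin family stands at 15.8 and 43.1 CPM in the double knockout and 3.76 and 0.747 CPM in the Smad2 knockout, the Serpinb9 family at 181 and 195 CPM and 20.6 and 9.86 CPM, and the Ceacam family is above 5 CPM in every library.

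The libraries labelled Smad3 knockout gave no call. Between the Smad3 knockout and WT 0 of 30 members were called in either direction by edgeR and 0 by DESeq2, with 2 at an unadjusted p under 0.05 (Serpinb9c and Ceacam20, both higher), while 0.431% of all genes tested were called higher and 0.123% lower. Serpinb9c stood at 0.155 and 0.222 CPM in the Smad3 knockout, against 0.0229 and 0.0475 CPM in WT (adjusted p = 0.169). The Smad2 knockout exceeded the Smad3 knockout directly in 6 members (Serpinb9b, Serpinb9d, Serpinb9e, Prl2c3, Ctsj and Tpbpa) and was below it in 0, with 15.7% of all genes tested higher and 17.9% lower. Serpinb9b had a log2 difference of 1.22 (edgeR adjusted p = 0.00475, SE 0.22), and 3 of these 6 genes pass the filter without the double knockout. Of these 3, Prl2c3 does so through the Smad2 knockout, where it is high, so its call is no finding. The count fell to 2 without Smad2 knockout replicate 1, to 1 without Smad3 knockout replicate 1 or 2, and to 3 without double knockout replicate 1 or 2, and was 11 without Smad2 knockout replicate 2. Serpinb9b was called in each of these count fits. On the TPM scale it stood at 2.38 and 1.46 TPM in the Smad2 knockout, against 2.01 and 1.33 TPM in the Smad3 knockout, the groups overlapped, and its difference was 0.12 on log2(TPM + 1) and 0.18 on log2(TPM + 0.1) (limma adjusted p = 0.673 and 0.677). These limma fits called 0 and 1 members higher and 1 and 1 lower in the Smad2 knockout. Over all genes they called 6884 and 6807 of 14328 in either direction.

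The interaction asks whether loss of Smad2 had another effect where Smad3 was also lost. It is the log2 difference between the double and the Smad3 knockout minus that between the Smad2 knockout and WT. For Serpinb9b it was 2.98 (edgeR adjusted p = 0.00243, SE 0.32), for Serpinb9e 4.03 (edgeR adjusted p = 0.0406, SE 1.12) and for Ctsr 8.96 (adjusted p = 0.0496), the 3 members called, all higher. Ctsr passes the filter through the double knockout alone, so 2 of the 12 members that pass without it were called. Among all genes tested 11.3% were called higher and 7.52% lower. The Serpinb9b call was kept without any 1 library. Without WT replicate 1 (0.094), Smad3 knockout replicate 1 (0.0696) or 2 (0.125), or double knockout replicate 1 (0.0919) or 2 (0.103) the Serpinb9e call was lost and 1 member was left. It was lost too without WT replicate 2 (0.0932). The Serpinb9e value was 5.78 without Smad2 knockout replicate 1 and 3.24 without replicate 2. Ctsr had 1 count in the Smad2 knockout, 2 in WT and 0 in the Smad3 knockout, so its fitted value rests on few counts, and its call was lost without WT day 0 replicate 1 or 2 and without every day 4 library but WT replicate 2 (adjusted p 0.0599 to 1).

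In WT cells at day 4, Serpinb9, Serpinb9b and Serpinb9e were called higher than at day 0, and Ceacam9 and Ceacam20 lower. These are 3 and 2 of the 12 members that pass the filter without the double knockout, shares near those of all genes tested, of which 28.9% were called higher and 23.2% lower. Ceacam9 stood at 0.0229 and 0 CPM at day 4, against 0.717 and 0.606 CPM at day 0, a log2 fold change of -5.50 (edgeR adjusted p = 0.00084, SE 0.86). Outside the double knockout Ceacam9 had 24 and 23 counts at day 0 and at most 7 in any other library. Without the double knockout it therefore passes through the day 0 libraries, where it is high, and its call here is no finding. Ceacam20 stood at 0.503 and 0.452 CPM at day 4, against 2.87 and 2.11 CPM at day 0, a log2 fold change of -2.37 (edgeR adjusted p = 0.000772, SE 0.36). The day 4 double knockout values lay above the day 0 values for Ceacam9 and below them for Ceacam20, which was not tested. The groups of Serpinb9 did not overlap, with 2.26 and 1.28 CPM at day 4 against 0.448 and 0.737 CPM at day 0 and a log2 fold change of 1.57 (edgeR adjusted p = 0.0154, SE 0.44), a call lost without replicate 1 of day 0 (0.11) or of day 4 (0.106). Serpinb9b had a log2 fold change of 0.73 (edgeR adjusted p = 0.0279, SE 0.24), and Serpinb9e, with no count at day 0, was at least 6.11-fold higher at day 4 (adjusted p = 0.0474). Both calls were lost without any 1 of the 4 WT libraries (adjusted p 0.0504 to 0.154 for Serpinb9b and 0.112 to 0.137 for Serpinb9e) and without double knockout replicate 1 (0.0534 and 0.0514), and that of Serpinb9b also without replicate 2 (0.053). The count was 2 without replicate 1 of day 0 or of day 4, and 3 without day 0 replicate 2 or double knockout replicate 1.

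Most of the other trophoblast lineage genes listed rose in the same libraries. Of 10 giant cell and spongiotrophoblast genes outside the families, 8 were called higher in the double knockout than in WT and 1, Flt1, lower. Among all genes tested 10.8% were called higher and 12.3% lower. The median log2 fold change of the 10 genes was 2.53, against -0.05 over all genes tested. Flt1 stood at 19.8 and 23.8 CPM in the double knockout, against 44.4 and 41.0 CPM in WT. Hand1, a transcription factor that giant cells require, stood at 60.6 and 62.7 CPM in the double knockout, 53.5 and 39.8 in the Smad2 knockout and 9.73 and 14.0 in the Smad3 knockout, against 0.617 and 1.69 in WT. Its log2 fold change between the double knockout and WT was 5.74 (edgeR adjusted p = 6.03e-05, SE 0.44). Pcdh12, a protocadherin of glycogen trophoblast, stood at 13.5 and 8.19 CPM in the double knockout and 0.371 and 0.0854 CPM in the Smad2 knockout, against 0.137 and 0.166 CPM in WT. In the Smad2 knockout 6 of the 10 were called higher and 1 lower (median log2 fold change 1.59), and in the Smad3 knockout 3 higher and 0 lower. Over all genes tested, 15.4% and 0.431% were called higher in these 2 knockouts, and 20.1% and 0.123% lower. Of 19 trophoblast regulators, 17 were called higher in the double knockout and 1, Eomes, lower. Hand1 and Ascl2 are in both lists.

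Of the 7 syncytiotrophoblast genes tested, 5 were called higher in the double knockout and 0 lower, led by Syna, which encodes the fusion protein syncytin A. It stood at 25.2 and 24.8 CPM in the double knockout and 0.821 and 0.299 in the Smad2 knockout, against 0.229 and 0.333 in WT, with a log2 fold change of 6.47 (edgeR adjusted p = 5.81e-05, SE 0.50) between the double knockout and WT. Synb, its partner in the other syncytial layer, had counts in 1 double knockout library (0.0831 CPM) and in no other library. Of 6 simple epithelium genes listed, the keratins Krt7, Krt8, Krt18 and Krt19 were called higher than in WT in both the double and the Smad2 knockout. In the Smad2 knockout 1 of the 6 was called lower, and in the double knockout 0. Cdh1 stood at 488 and 534 CPM in the double knockout and 395 and 525 in the Smad2 knockout, against 709 and 796 in WT. Epcam stood at 164 and 146 CPM and 230 and 261 CPM, against 174 and 207 in WT. Most extraembryonic endoderm genes were lower, with 11 of 13 called lower in the double knockout and a summed level of 374 and 298 CPM there, 75.5 and 78.0 CPM in the Smad2 knockout and 1058 and 1007 CPM in WT. The part of these cell types in the results was not tested.

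The genes that lie among the members could be tested for some groups only. The members lie in 8 groups on chromosomes 7 and 13, such as the 22 prolactin genes between 27094190 and 28151611 on chromosome 13 and the 10 cathepsin and Tpbp genes between 60901188 and 61570127. Of 49 protein-coding genes of other families inside these groups, 39 were tested, and 0 of these lie in the 2 prolactin groups or the Serpinb9 group. The group of Psg and Ceacam genes held 15 of them, with 0 called higher and 3 lower in the double knockout than in WT, and that of Ceacam1, Ceacam2 and Ceacam10 held 21, with 0 higher and 2 lower. The 2 tested neighbours of Ceacam16, Ceacam19 and Ceacam20 (Igsf23 and Pvr) and the 1 among the cathepsins (Ctla2a) were called higher. Ctla2a, which encodes a cathepsin inhibitor and lies among the cathepsins, averaged 0.880 ± 0.752 CPM in the double knockout (SD, n = 2), with 1 count in WT (ratio 78.0, 95% exact counting interval 13.6 to 3118; edgeR adjusted p = 0.00544). Among genes tested outside the families, the median log2 difference was 0.05 on chromosome 7 and -0.10 on chromosome 13. Of 6 other clade B serpins tested, 2 were called higher, Serpinb6b with a log2 fold change of 4.21 (edgeR adjusted p = 8.64e-05, SE 0.35) and Serpinb1a with 2.19 (edgeR adjusted p = 0.00834, SE 0.46). The pituitary hormone genes Prl and Gh had no count in any library.

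Short sequence motifs were counted in the RefSeq promoters on both strands, with 61 of the 70 members matched and 26 of the 27 called in the double knockout. AGATAA or TGATAA, as bound by GATA factors, was found in 34.6% of the 26 called members, 57.1% of the 35 others and 19% of all 27025 promoters. TGANTCA (AP-1) was found in 19.2%, 28.6% and 7.93% of these, GCCNNNGGC (AP-2) in 19.2%, 8.57% and 16.5%, and GGAATG (TEAD) in 11.5%, 17.1% and 14.6%. AATCCACA, a FOXH1 motif, was found in 4 called members (Prl2c3, Prl2c5, Prl7d1 and Tpbpa, 15.4%), in 2 others (Cts8 and Tpbpb, 5.71%) and in 0.873% of all promoters, and the palindromic SMAD motif GTCTAGAC in 0 of the 61 and 0.211% of all. None of these strings contains another. Promoters of near copies are not separate observations: the 3 prolactin family matches lie 31 to 33 bases after the start of promoters that share their sequence, and the Tpbpa match, 160 bases before its start, is repeated in Tpbpb, where 1 count was seen.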

How the data were processed

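RNA was measured in 10 of the 24 samples of the series, and the 14 ChIP samples were not analysed here. Per the file headers, each library has a gene table of expected counts and of TPM (transcript shares scaled for length), as the authors deposited it. The build mm10 and the tools RSEM, STAR, Bowtie2, HOMER and FastQC 0.11.5 are listed, with no role or order, per the submitters' processing notes. The annotation version and the strand setting are not given in the sources used here. Symbols were matched by gene ID to GENCODE M21 (53274 IDs without the version, 105 unmatched), and 20602 genes had no count.

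After rounding of the deposited expected counts to whole numbers, groups were tested with edgeR 4.0.16 (R 4.3.3), in 1 quasi-likelihood fit over the 5 groups of 2 libraries (TMM scaling, filterByExpr, 5 residual degrees of freedom). Benjamini-Hochberg adjustment was over all 19470 genes tested, and a call is an adjusted p under 0.05. The design, tests and 23 alternatives (limma 3.58.1 and DESeq2 1.42.0 among them) were written down together, and the members and lists were chosen with earlier results of these data known. The scripts were tested on simulated data.

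Members named with values were, in each family, up to 6 tested genes with a group mean of at least 1 CPM, Tpbpa and Tpbpb, and the called member with the lowest adjusted p in each comparison and direction. Up to 3 called genes per list were named in the same way. Other genes named were chosen after their values were seen. At these depths 1 count equals about 0.02 to 0.03 CPM, so genes with few counts carry wide counting error.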

Additional observations from a re-analysis of the deposited data

Results flagged for a closer look

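Serpinb9b, Serpinb9e and Ctsr were marked because the effect of Smad2 loss differed between 2 backgrounds by a test of the difference itself, the edgeR interaction term. The difference between the double and the Smad3 knockout exceeded that between the Smad2 knockout and WT by 2.98 on the log2 scale for Serpinb9b (adjusted p = 0.00243), by 4.03 for Serpinb9e (adjusted p = 0.0406) and by 8.96 for Ctsr (adjusted p = 0.0496). The Ctsr value rests on 77 counts in the double knockout and 3 in the other 3 day 4 groups together. Ctsr passes the low-count filter through the double knockout alone, which favours its call, and the call was lost in 14 of 20 alternatives. No group was large enough for a test of single libraries that stand apart.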

How the results depend on the processing

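Of 77 results on single members, recomputed in 1688 alternatives, 1476 kept their direction and side of the threshold, 210 kept the direction and lost the call, and 2 reversed. Both are Ceacam16, not called between the double knockout and WT, whose log2 difference was -0.51 without WT replicate 1 and -0.35 without double knockout replicate 1, within a range up to 2.92 over the libraries left out. Numbers of members called ranged, over fits that left out 1 library each, between 18 and 30 for the double knockout against WT, 4 and 15 for the Smad2 knockout against WT, 0 and 0 for the Smad3 knockout against WT, 14 and 27 for the double against the Smad2 knockout, 1 and 11 for the Smad2 against the Smad3 knockout, 1 and 3 for the interaction, and 2 and 6 for day 4 against day 0. These fits tested 31 to 38 members, against 30 in the main fit. The numbers also moved with limma on log2(TPM + 1) and log2(TPM + 0.1), which tested 17 members with a mean TPM of at least 1: 16 and 16 for the double knockout against WT, 0 and 1 for the Smad2 knockout against WT, 1 (lower) and 2 (1 higher, 1 lower) for the Smad2 against the Smad3 knockout, where edgeR called 6 higher and 0 lower, 14 and 11 for the interaction, and 2 and 3 for day 4 against day 0. With members of whole expected counts alone, by construction fewer genes, they were 17, 6, 2, 1 and 3 for the same comparisons and 13 for the double against the Smad2 knockout. Fits of the compared groups alone gave 2 calls for the Smad2 knockout against WT and 2 against the Smad3 knockout, a transcript length offset gave 2 for the Smad2 against the Smad3 knockout and 1 for the interaction, and leaving out the low-count filter gave 12 for the Smad2 against the Smad3 knockout and 1 for the Smad3 knockout against WT. Over all 14328 genes of the limma fits, 3067 and 2743 were called for the double knockout against WT. For the Smad2 knockout against WT they were 6968 and 6951, for the interaction 5512 and 5303, and for day 4 against day 0 8585 and 8643. The cause of the shifts between settings was not tested. With the series of file names as a covariate, the calls of Ctsq (adjusted p = 0.0581), Prl7a1 (0.0609) between the double knockout and WT and of Ctsr (0.056) in the interaction were lost. Same-numbered libraries correlated in their deviations at 0.113 to 0.51 among the 4 other groups and at -0.18 to -0.0354 with the double knockout, so the numbers were not taken to pair libraries in the main fit. In the 4 other groups replicate 1 is of the first file-name series and replicate 2 of the second. Whether same-numbered libraries there shared a source is not given in the labels. With the replicate block the counts were 27, 10, 0, 22, 5, 2 and 6 in the order of the first list above, and with the double knockout numbers crossed, an alternative chosen after seeing the data, they were 27, 13, 0, 25, 8, 2 and 6. Under the block Prl7d1 (adjusted p = 0.0616) and Tpbpa (0.0536) were not called between the Smad2 knockout and WT, nor was Tpbpa (0.056) between the Smad2 and the Smad3 knockout. Genes with few counts, such as the untested members, limit the precision.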
